A study of Mus musculus with 24 samples.

Results

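Imprinted genes are transcribed mainly from one parental copy, and the 10 described here, Plagl1, Peg10, Sgce, Mest, Nnat, Snrpn, Impact, Grb10, Igf2r and Airn, lie at 8 separate places in the mouse genome. They were chosen by symbol, all 10 were found among the 55291 gene symbols of the deposited tables, and all 10 passed the filter that kept 18713 genes for testing. They were measured by total RNA sequencing in E14Tg2a mouse embryonic stem cells (strain 129/Ola) whose own CTCF is fused to a degron that auxin triggers. Indole-3-acetic acid (IAA) at 500 µM was given to remove the endogenous protein, and doxycycline at 1 µg/ml to switch on a Ctcf transgene, for 2 days. There were 12 groups of 2 libraries each. In 9 groups the transgene carried a missense substitution (R339Q, R342C, S354F, K365T, R377C, R377H, Q418R, R448Q or H455R) and the cells received IAA and doxycycline, written ID. The line with the wild-type transgene received IAA alone (WT IAA, no CTCF supplied), nothing (WT untreated), or IAA and doxycycline (WT ID, the group the others are set against). Each transgene is represented by 1 line, so a substitution and any other difference between its line and the WT line cannot be told apart. The labels do not state that replicate libraries are separate cultures; p-values therefore reflect only how far these libraries spread, possibly for technical reasons.

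Imprinting is set by DNA methylation laid down on one allele in the germ line and kept through early embryonic divisions, in part by the zinc finger protein ZFP57. CTCF is the insulator protein that halts loop extrusion by cohesin, and it binds the unmethylated copy of several imprinting control regions, the best known being that of Igf2 and H19. Plagl1, Peg10, Sgce, Mest, Nnat, Snrpn, Impact and Airn are known as paternally expressed genes, whereas Igf2r and, outside neurons, Grb10 are known as maternally expressed. The tables give 1 value per gene and library and do not separate the alleles, so every value below is a total over both copies. In such bulk RNA, fewer expressing cells and less RNA per cell cannot be told apart. Gene coordinates are those of the mm10 build.

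The libraries held between 27.8 M and 77.1 M recovered reads each. The labelled cell type was borne out by 10 embryonic stem cell markers, whose summed level was 8455 to 10598 TPM (an abundance corrected for gene length and scaled alike in all libraries) over all groups. Markers of other cells were low. Their sums were 139 to 309 TPM for 10 trophectoderm genes, 75.3 to 185 TPM for 12 primitive endoderm genes and 62.5 to 228 TPM for 8 neural genes. They were 80.4 to 206 TPM for 10 fibroblast genes, 6 of which stayed under 1 TPM, and 15.9 to 38.5 TPM for 8 mesendoderm genes. Ctcf RNA, which counts the tagged gene and the transgene together and so does not check removal of the protein, averaged 8582 (R342C ID) to 20431 (R448Q ID) normalized counts in the mutant groups, 9180 in WT IAA and 10196 in WT ID.

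The germ-line methylation marks of Plagl1, Mest, Nnat and Snrpn lie at the promoter of their imprinted transcript, and those promoters are shown as examples. They do not stand for all members, and the Airn window, among others, is not shown. They are RefSeq windows of the GRCm38.p6 build, 250 bases before to 50 bases after the start of transcription, 5′ to 3′ on the gene's strand. Capitals mark the ZFP57 hexamer, TGCCGC on either strand.
Plagl1 (chr10:13090582-13090881, plus strand): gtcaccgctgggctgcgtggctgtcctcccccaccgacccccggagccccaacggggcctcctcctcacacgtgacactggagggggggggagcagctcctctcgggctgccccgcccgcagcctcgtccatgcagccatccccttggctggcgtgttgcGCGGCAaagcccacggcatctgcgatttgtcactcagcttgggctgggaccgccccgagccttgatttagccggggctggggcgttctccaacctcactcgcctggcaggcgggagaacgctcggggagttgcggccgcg
Mest (chr6:30737800-30738099, plus strand): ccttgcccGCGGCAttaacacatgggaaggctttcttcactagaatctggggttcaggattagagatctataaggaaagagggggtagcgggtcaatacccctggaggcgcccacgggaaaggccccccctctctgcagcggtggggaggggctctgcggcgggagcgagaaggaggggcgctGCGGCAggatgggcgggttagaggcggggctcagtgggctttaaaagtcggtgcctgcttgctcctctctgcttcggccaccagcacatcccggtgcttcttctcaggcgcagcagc
Nnat (chr2:157559828-157560127, plus strand): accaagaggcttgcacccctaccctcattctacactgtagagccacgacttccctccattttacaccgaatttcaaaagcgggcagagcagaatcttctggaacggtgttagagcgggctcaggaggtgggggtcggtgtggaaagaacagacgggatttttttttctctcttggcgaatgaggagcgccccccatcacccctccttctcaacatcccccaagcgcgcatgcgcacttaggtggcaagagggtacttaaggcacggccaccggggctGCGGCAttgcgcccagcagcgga
Snrpn (chr7:60005150-60005449, minus strand): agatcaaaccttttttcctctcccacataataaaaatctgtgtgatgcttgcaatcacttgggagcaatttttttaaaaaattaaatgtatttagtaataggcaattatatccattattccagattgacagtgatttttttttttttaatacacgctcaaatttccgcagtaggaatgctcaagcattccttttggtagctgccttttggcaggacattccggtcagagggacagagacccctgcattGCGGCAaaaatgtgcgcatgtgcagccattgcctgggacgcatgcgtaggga
The hexamer occurred 2 times in the Mest window and 1 time in each of the other windows shown, and 11.61% of 32851 promoters of the same length hold it at least once. Of the members' windows that are not shown, an overlapping Mest window held it 2 times and one Grb10 window 1 time. It was not found in the Igf2r and Airn windows, in another Grb10 window, in the upstream Mest window or in the other 3 Snrpn windows. Every window shown thus holds the hexamer, which the Airn window does not. The windows shown were picked as examples, so this does not describe the members as a set. A second motif, the core of the CTCF motif, was also searched for. It was found in none of the members' windows, shown or not, and 2.43% of the 32851 promoters hold it. Of CG dinucleotides, Plagl1 had 26, Mest 17, Nnat 17 and Snrpn 7, against a median of 7 over all promoters. Among windows not shown, Airn had 3, Igf2r 34 and the Grb10 windows 45 and 9. Of the 10 members 7 have an entry in the promoter table, and Peg10, Sgce and Impact have none. These matches describe letters only; neither binding nor methylation was measured in the data used here.

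With all libraries, the members moved in both directions in every comparison with WT ID. Without S354F ID replicate 2 or WT ID replicate 1 the 1 call left in S354F ID was lower, and without WT ID replicate 1 the 3 calls left in R377H ID were all higher. Calls rest on limma's moderated test of log2(normalized count + 1) with a Benjamini-Hochberg adjusted p under 0.05 over all 18713 genes. Of the 100 pairs of a member and a comparison, 59 were called, 33 higher and 26 lower than in WT ID. In R339Q ID 4 members were called, where 21.5% of all genes were, 2 higher (11.8% of all genes) and 2 lower (9.7%). In R342C ID it was 8 (23.3%), 3 higher (10%) and 5 lower (13.3%). S354F ID had 3 (9.8%), 2 higher (5.49%) and 1 lower (4.31%). K365T ID had 8 (32%), 4 higher (17.7%) and 4 lower (14.2%). For R377C ID the count was 6 (8.09%), 5 higher (4.67%) and 1 lower (3.43%), and for R377H ID 5 (25.1%), 3 higher (14.4%) and 2 lower (10.7%). Q418R ID had 5 members called (25%), 2 higher (11.2%) and 3 lower (13.8%), and R448Q ID had 7 (45.8%), 4 higher (22.8%) and 3 lower (23.1%). In H455R ID 5 were called (23.1%), 4 higher (12.6%) and 1 lower (10.5%). In WT IAA 8 were called (20.7%), 4 higher (9.96%) and 4 lower (10.7%). The median absolute log2 fold change of the 10 members ranged from 0.25 (S354F ID) to 1.07 (K365T ID) among the mutants and was 0.70 in WT IAA; over all genes it was 0.16 (R377C ID) to 0.37 (R448Q ID) and 0.22. These comparisons share the WT ID libraries. A test that leaves WT ID out, limma's moderated F test of equality of the 9 mutant groups, called all 10 members, with 76% of all genes called. Among markers of other cells, primitive endoderm genes moved in R342C ID, where 6 of 9 tested were called higher and none lower (median log2 fold change 0.90). Of 4 fibroblast markers tested, 3 were higher and 1 lower in R339Q ID (median 1.06), and 3 were higher and none lower in K365T ID (1.01) and in H455R ID (0.86). Of 5 neural markers tested, 3 were higher and none lower in R448Q ID (0.55), and 3 were lower and none higher in Q418R ID (-0.80). In K365T ID 2 neural markers were higher and none lower (0.38), and in H455R ID 3 were higher and 1 lower (0.35). Of 9 trophectoderm markers tested, 3 were higher and none lower in WT IAA (0.52), and 4 were higher and 1 lower in R339Q ID (0.37). Of 6 mesendoderm markers tested, 1 was higher and 3 lower in Q418R ID (-0.43). These are examples, since every comparison with WT ID had calls among such markers. The part of these markers in the members' values was not tested.

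**Figure D1:**
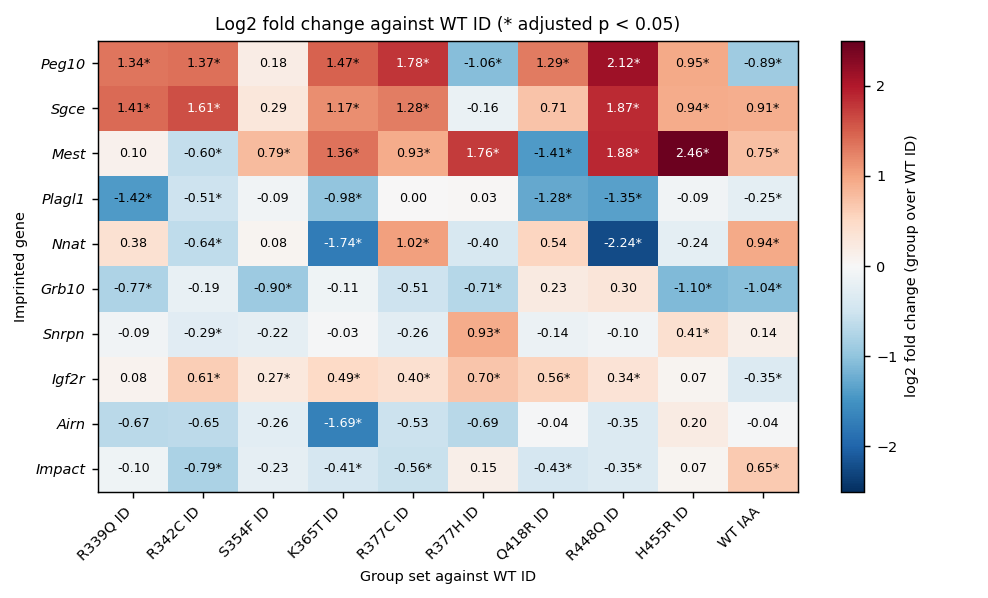
Log2 fold change of each imprinted gene (rows) in each group over WT ID (columns), with colour and number giving the value and an asterisk an adjusted p under 0.05 in limma. Peg10 runs from 2.12 in R448Q ID to -1.06 in R377H ID, and Plagl1 has no called increase.

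Plagl1 (ENSMUSG00000019817.18, chr10:13060504-13131694, plus strand) encodes a zinc finger transcription factor that restrains the cell cycle. It fell in 5 mutants and in WT IAA, and it was called higher in none. Its values were 2856 and 3142 normalized counts in R339Q ID, 3458 and 3138 in Q418R ID, and 3180.2 and 3099 in R448Q ID, against 8130 and 7883 in WT ID. The libraries of these 3 mutants all lay far below both WT ID libraries. The log2 fold changes over WT ID were -1.42 ± 0.08 (SE; adjusted p = 8.29e-10) in R339Q ID, -1.28 ± 0.08 (1.09e-09) in Q418R ID and -1.35 ± 0.08 (1.22e-10) in R448Q ID, or 2.67, 2.43 and 2.55 times lower. K365T ID had 3915 and 4226 normalized counts (log2 fold change -0.98 ± 0.08, adjusted p = 2.41e-08) and R342C ID had 5221 and 6011 (-0.51 ± 0.08, 1.13e-04). In the other 4 mutants Plagl1 stayed near WT ID. S354F ID had 7513 and 7491 normalized counts, R377C ID 8389 and 7649, R377H ID 8190.3 and 8189, and H455R ID 7517 and 7548, with log2 fold changes of -0.09 to 0.03, none called. Without CTCF, in WT IAA, it had 6959 and 6546 normalized counts, a log2 fold change of -0.25 ± 0.08 (adjusted p = 0.0258). That call was lost without WT IAA replicate 2 (adjusted p = 0.202), WT ID replicate 1 (0.147) or WT ID replicate 2 (0.0797), on the TPM scale (0.0918) and without the filter on low counts (0.0569). On the TPM scale the order of the groups ran from 77.8 TPM in R377C ID to 26.8 TPM in R448Q ID, and the lowest 3, Q418R ID, R339Q ID and R448Q ID, overlapped each neighbour in that order.

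**Figure D2:**
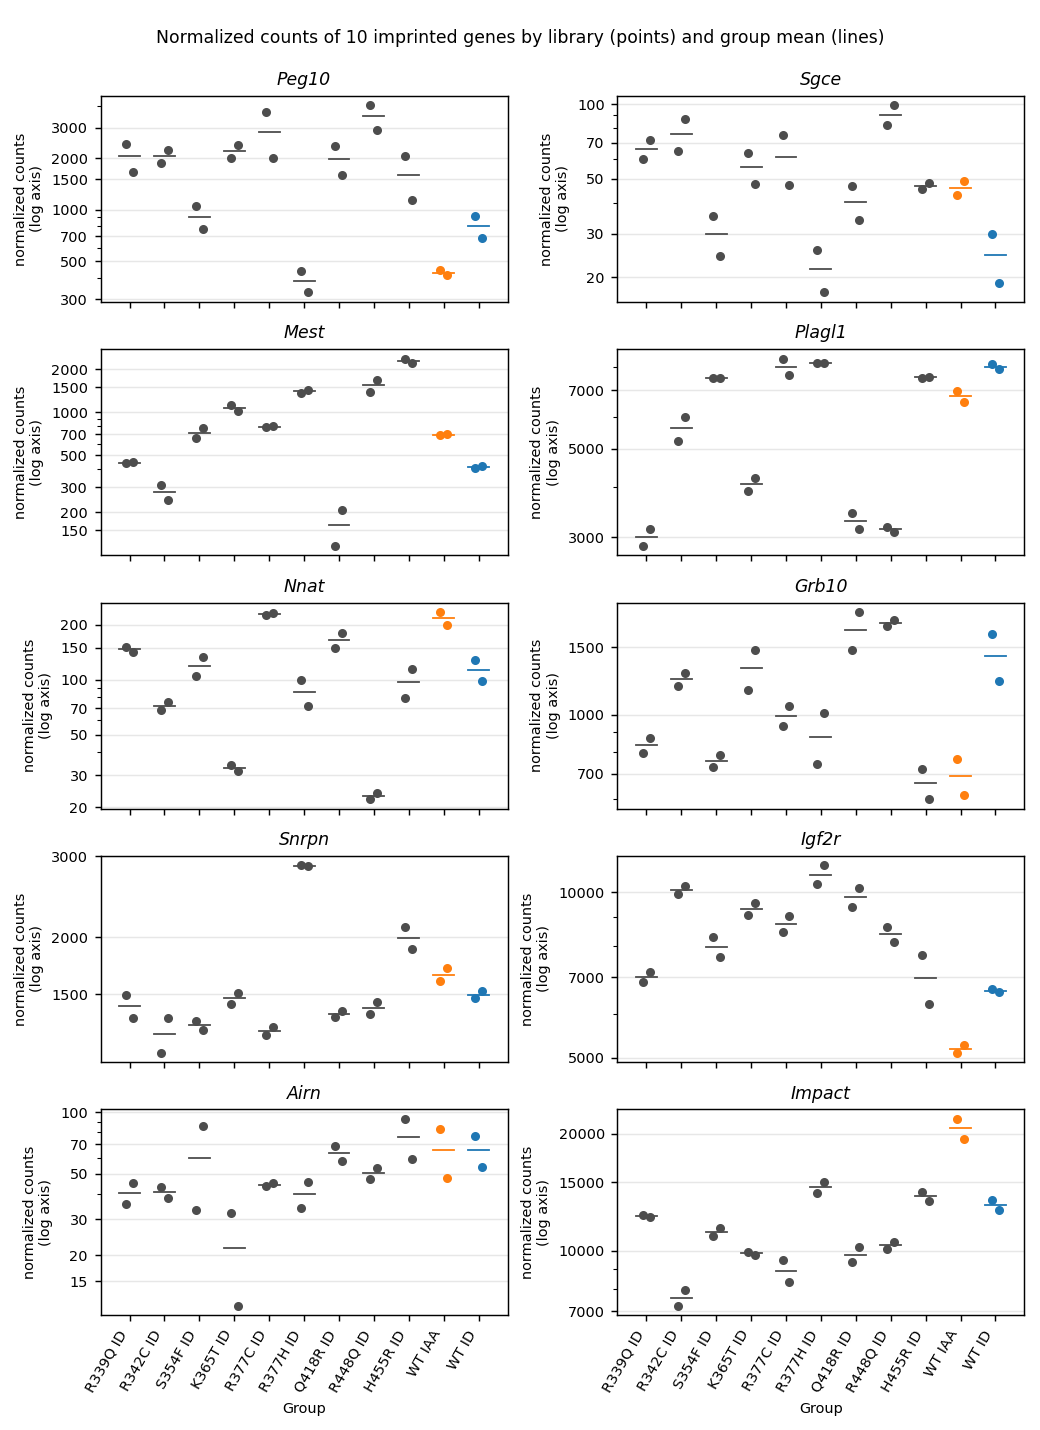
Normalized counts (log axis, a scale per panel) of the 10 imprinted genes in 9 mutant groups (grey), WT IAA (orange) and WT ID (blue), with points for the 2 libraries and a line at the group mean. Plagl1 libraries of R339Q ID, Q418R ID and R448Q ID lie between 2856 and 3458, below the 7883 and 8130 of WT ID.

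Peg10 and Sgce share a bidirectional promoter region, with annotated starts 0.099 kb apart on opposite strands. Peg10 (ENSMUSG00000092035.8, chr6:4747306-4760517, plus strand) is a gene domesticated from a retrotransposon and needed for the placenta, and Sgce (ENSMUSG00000004631.15, chr6:4674350-4747207, minus strand) encodes epsilon-sarcoglycan, a membrane protein. Peg10 rose in 7 mutants and fell in R377H ID and in WT IAA. Its normalized counts were 4061 and 2931 in R448Q ID, 3716 and 1990.3 in R377C ID, 1995 and 2398 in K365T ID, 1880.5 and 2223 in R342C ID, and 2423 and 1668 in R339Q ID, against 920.2 and 681 in WT ID. All libraries of these mutants were above both of WT ID, although R377C ID spread widely between its 2. The log2 fold changes were 2.12 ± 0.29 in R448Q ID (adjusted p = 6.06e-06), 1.78 ± 0.29 in R377C ID (6.11e-04), 1.47 ± 0.29 in K365T ID (7.12e-04), 1.37 ± 0.29 in R342C ID (0.00249) and 1.34 ± 0.29 in R339Q ID (0.00237). Q418R ID (2347 and 1600.1) rose by 1.29 ± 0.29 (adjusted p = 0.00268) and H455R ID (2056 and 1132) by 0.95 ± 0.29 (0.0235). Peg10 stood at 441 and 328 normalized counts in R377H ID, a log2 fold change of -1.06 ± 0.29 (adjusted p = 0.0108), and at 442 and 414 in WT IAA, a log2 fold change of -0.89 ± 0.29 (0.0363). S354F ID overlapped WT ID, with 1056 and 766. Leaving out 1 library ended the call in R339Q ID (adjusted p = 0.0596 without its replicate 1), Q418R ID (0.0568 without its replicate 1), R377H ID (0.125 without its replicate 2, 0.124 without WT ID replicate 1) and H455R ID (0.333 without its replicate 1, 0.194 without WT ID replicate 2). The decrease in WT IAA was lost without any 1 of its 4 libraries (0.0531 to 0.256), with DESeq2 (0.0604) and on the TPM scale (0.0795), and both it and the H455R ID call were lost without the filter (0.0913 and 0.0638).

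Sgce was expressed at 0.144 to 0.572 TPM, with as few as 16 reads in a library, so its values are coarse. It had 82.7 and 98.9 normalized counts in R448Q ID, 64.6 and 87.0 in R342C ID, 60.1 and 71.3 in R339Q ID, 63.5 and 47.7 in K365T ID, 74.8 and 47.0 in R377C ID, and 45.3 and 48.2 in H455R ID, against 30.0 and 19.1 in WT ID. Both libraries of each of these mutants lay above both of WT ID. Relative to WT ID, Sgce was higher on the log2 scale by 1.87 ± 0.32 in R448Q ID (adjusted p = 6.54e-05), 1.61 ± 0.32 in R342C ID (0.00138), 1.41 ± 0.32 in R339Q ID (0.00306), 1.28 ± 0.32 in R377C ID (0.0153), 1.17 ± 0.32 in K365T ID (0.00784) and 0.94 ± 0.32 in H455R ID (0.0376). Sgce and Peg10 were thus called in the same direction in 6 comparisons. They parted in WT IAA, where Sgce was higher at 42.9 and 48.8 normalized counts (log2 fold change 0.91 ± 0.32, adjusted p = 0.048) and Peg10 was lower. Q418R ID gave 46.6 and 34.0 normalized counts (log2 fold change 0.71 ± 0.32, adjusted p = 0.11); there the median of all chromosome 6 genes was -0.46, and Sgce was called after centring each chromosome on its median (1.18, adjusted p = 0.0101). Calls of Sgce were lost in R339Q ID without WT ID replicate 2 (0.062), in K365T ID without its replicate 1 (0.0655) or WT ID replicate 2 (0.117), and in R377C ID without its replicate 1 (0.181) or WT ID replicate 2 (0.193). The H455R ID call was lost without either of its libraries or WT ID replicate 2 (0.113 to 0.316) and in 4 other settings (0.0527 to 0.0765), and fitting only the compared groups ended that of K365T ID (0.0502). The WT IAA call was lost without either of its libraries or WT ID replicate 2 (0.106 to 0.361) and in 6 other settings (0.0511 to 0.0964), among them edgeR and DESeq2. R377H ID (25.9 and 17.4) and S354F ID (35.5 and 24.4) overlapped WT ID.

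Mest (ENSMUSG00000051855.15, chr6:30723547-30748465, plus strand), which encodes a hydrolase-fold protein and is active in mesoderm and growing tissues, had the widest range of the 10 genes. Its group means spanned 2.87 TPM in Q418R ID to 44.4 TPM in H455R ID, a ratio of 15.5. H455R ID had 2371 and 2208 normalized counts, R448Q ID 1387 and 1694, R377H ID 1372.5 and 1439, and K365T ID 1122 and 1016, against 407 and 423 in WT ID. The replicates of these groups lay close together and clear of WT ID. The log2 fold changes were 2.46 ± 0.18 in H455R ID (adjusted p = 2.59e-08), 1.88 ± 0.18 in R448Q ID (5.77e-08), 1.76 ± 0.18 in R377H ID (4.74e-07) and 1.36 ± 0.18 in K365T ID (1.11e-05), the first a 5.5-fold increase. Smaller increases were called in R377C ID, with 789 and 797 normalized counts (0.93 ± 0.18, adjusted p = 0.00222), in S354F ID, with 660.0 and 783 (0.79 ± 0.18, 0.00683), and in WT IAA, with 691 and 701 (0.75 ± 0.18, 0.0057). Mest fell in Q418R ID to 117 and 208 normalized counts, by 1.41 ± 0.18 on the log2 scale (adjusted p = 8.52e-06), and by 0.94 (9.14e-04) once the chromosome 6 median of -0.46 was taken off. It fell in R342C ID to 308 and 244, by 0.60 ± 0.18 (adjusted p = 0.0201). R339Q ID, with 439.75 and 449, was 0.10 above WT ID and not called. The R342C ID call was lost without its replicate 2 (0.162), WT ID replicate 1 (0.0692) or WT ID replicate 2 (0.109) and on the TPM scale (0.0896), and that of S354F ID without its replicate 2 (0.0833) or WT ID replicate 1 (0.057). Of the 9 trophectoderm markers tested, 7 were called higher and 1 lower in H455R ID, where Mest was highest (median log2 fold change 1.07). In the next groups by Mest level they were 1 higher and 4 lower in R448Q ID (-0.08), 2 higher and 4 lower in R377H ID (-0.45) and 2 higher and 3 lower in K365T ID (-0.15). Their part in the Mest values was not tested. Mest overlaps Copg2 on the opposite strand over 912 bases, and the strand setting of the counting is not given in the sources used here.

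Nnat (ENSMUSG00000067786.16, chr2:157560078-157562522, plus strand) encodes neuronatin, a small membrane protein of the endoplasmic reticulum that regulates calcium, and lies wholly inside an intron of Blcap on the opposite strand. It fell most in R448Q ID, to 22.2 and 24.0 normalized counts, and in K365T ID, to 34.2 and 31.8, against 129 and 98.3 in WT ID. These are log2 fold changes of -2.24 ± 0.22 (adjusted p = 1.33e-07) and -1.74 ± 0.22 (1.04e-05), or 4.71 and 3.34 times lower. R377C ID stood at 228 and 232 normalized counts (1.02 ± 0.22, adjusted p = 0.00671) and WT IAA at 235 and 200.1 (0.94 ± 0.22, 0.00592), both above WT ID in both libraries. R342C ID had 68.6 and 75.4 normalized counts (-0.64 ± 0.22, adjusted p = 0.0465). That call was lost without any 1 of its 4 libraries (0.0596 to 0.307), with chromosome centring (0.0592), on the TPM scale (0.109), without the filter (0.0702) and with only the compared groups in the fit (0.0883). The R377C ID increase was lost without its replicate 2 (0.0625) or WT ID replicate 2 (0.107), and the WT IAA increase without its replicate 1 (0.0607) or WT ID replicate 2 (0.089). The other 5 mutants ran from -0.40 to 0.54 on the log2 scale and were not called; of these R339Q ID (152 and 141) and Q418R ID (149 and 181) lay above both WT ID libraries.

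Snrpn (ENSMUSG00000102252.5, chr7:59982495-60140219, minus strand), which encodes a spliceosomal protein and starts the long transcription unit of the Prader-Willi region, varied little apart from R377H ID and H455R ID. R377H ID had 2865 and 2852 normalized counts and H455R ID 2106 and 1881, against 1472.5 and 1524 in WT ID. The log2 fold changes were 0.93 ± 0.09 (adjusted p = 2e-07) and 0.41 ± 0.09 (0.0018), or 1.91- and 1.33-fold. R342C ID, at 1121 and 1334, was called lower (-0.29 ± 0.09, adjusted p = 0.0196), a call lost without its replicate 1 (0.261), WT ID replicate 1 (0.061) or WT ID replicate 2 (0.124) and with only the compared groups in the fit (0.107). The other 7 groups lay between -0.26 and 0.14 on the log2 scale and were not called; on the TPM scale S354F ID, R377C ID, Q418R ID and R448Q ID were called lower (-0.21 to -0.26, adjusted p 0.00173 to 0.0429). Snrpn lies on the same strand as Gm38393 over 22570 bases, and Snurf, which shares its transcript, is listed at 0, so reads of these genes could be divided in a way the tables do not show.

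Impact (ENSMUSG00000024423.6, chr18:12955852-12992950, plus strand) encodes an inhibitor of the stress kinase GCN2 and was the most abundant member, at 119 to 305 TPM. It was highest in WT IAA, with 21845 and 19423 normalized counts, against 13533 and 12764 in WT ID (log2 fold change 0.65 ± 0.08, adjusted p = 1.32e-05). It fell in 5 mutants. R342C ID had 7227 and 7944 normalized counts (-0.79 ± 0.08, adjusted p = 1.41e-06), R377C ID 9503 and 8305 (-0.56 ± 0.08, 1.03e-04), Q418R ID 9344 and 10238 (-0.43 ± 0.08, 4.09e-04), K365T ID 9961 and 9772 (-0.41 ± 0.08, 4.18e-04) and R448Q ID 10128 and 10543 (-0.35 ± 0.08, 0.00103). All 10 of these libraries lay below both WT ID libraries, opposite in direction to WT IAA. The other 4 mutants, from -0.23 in S354F ID to 0.15 in R377H ID, were not called. S354F ID, with 10941 and 11438 normalized counts (limma adjusted p = 0.0642), lay below both WT ID libraries and was called lower with DESeq2 (-0.23, 0.04). No call of Impact was lost on leaving out a library or under another setting.

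Grb10 (ENSMUSG00000020176.17, chr11:11930508-12038683, minus strand) encodes an adaptor that dampens insulin and growth factor signalling. It fell in 4 mutants and in WT IAA and was called higher in none. It had 721 and 601 normalized counts in H455R ID, 731 and 783 in S354F ID, 792 and 868 in R339Q ID, 741 and 1011 in R377H ID, and 767 and 617 in WT IAA, against 1626 and 1226 in WT ID. No library of these groups reached the lower of WT ID. On the log2 scale the fold changes were -1.10 ± 0.16 in H455R ID (adjusted p = 5.99e-05), -0.90 ± 0.16 in S354F ID (0.00117), -0.77 ± 0.16 in R339Q ID (0.00192), -0.71 ± 0.16 in R377H ID (0.0028) and -1.04 ± 0.16 in WT IAA (1.88e-04). The chromosome on which it lies shifted as a whole in some lines: the median log2 fold change of 1375 chromosome 11 genes was 0.54 in R377H ID, 0.37 in K365T ID and 0.14 in R448Q ID. With each chromosome centred on its median, the log2 fold change of Grb10 was -1.25 in R377H ID (adjusted p = 1.02e-05) and Grb10 was called lower in K365T ID too (-0.47, adjusted p = 0.0298), where it had 1162 and 1476 normalized counts and a log2 fold change of -0.11 before centring. R377C ID, with 933 and 1053.5 normalized counts (-0.51 ± 0.16, adjusted p = 0.0585), was called with edgeR (0.0453), DESeq2 (0.0161), chromosome centring (0.0355), only the compared groups in the fit (0.0258) and without WT ID replicate 2 (0.0368). R342C ID, Q418R ID and R448Q ID lay between -0.19 and 0.30 and were not called, except that R448Q ID (1705 and 1770.1) was called higher without WT ID replicate 1 (0.50, adjusted p = 0.0431) and with only the compared groups in the fit (0.0482). The calls in R339Q ID (adjusted p = 0.0548 without WT ID replicate 1) and R377H ID (0.0738 without its replicate 1, 0.0756 without WT ID replicate 1) were lost on leaving out a library.

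**Figure D3:**
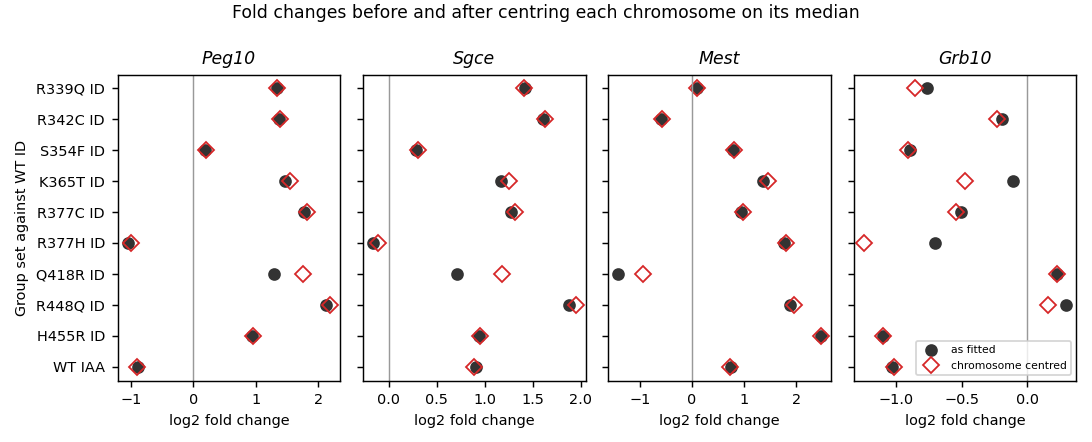
Log2 fold change over WT ID of Peg10, Sgce, Mest and Grb10 as fitted (filled circles) and after centring each chromosome on its median (open diamonds), 1 line per group. The pairs of symbols part in Q418R ID for the 3 chromosome 6 genes, where the chromosome median was -0.46, and in R377H ID and K365T ID for Grb10, where it was 0.54 and 0.37.

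Igf2r (ENSMUSG00000023830.14, chr17:12682406-12769664, minus strand) encodes the receptor that carries IGF2 to the lysosome, and Airn (ENSMUSG00000078247.4, chr17:12741311-12860136, plus strand) is the antisense RNA whose transcription across the Igf2r promoter silences the paternal Igf2r copy in differentiated cells. Igf2r rose in 7 mutants by modest amounts and fell in WT IAA. It had 10339 and 11190.2 normalized counts in R377H ID, 9916 and 10263 in R342C ID, 9403 and 10190 in Q418R ID and 9082 and 9570.1 in K365T ID, against 6657 and 6580 in WT ID. The libraries of these groups stood well clear of WT ID. Igf2r was higher on the log2 scale by 0.70 ± 0.08 in R377H ID (adjusted p = 2.68e-06), 0.61 ± 0.08 in R342C ID (4.72e-05), 0.56 ± 0.08 in Q418R ID (4.06e-05) and 0.49 ± 0.08 in K365T ID (1.30e-04), the first 1.63-fold. R377C ID (8459 and 9069; 0.40 ± 0.08, adjusted p = 0.00353), R448Q ID (8662 and 8115; 0.34 ± 0.08, 0.00188) and S354F ID (8296 and 7626; 0.27 ± 0.08, 0.0453) were called as well. In WT IAA it had 5113 and 5275 normalized counts (-0.35 ± 0.08, adjusted p = 0.00494), below both WT ID libraries. R339Q ID and H455R ID, at 0.08 and 0.07, were not called. The S354F ID call was lost without any 1 of its 4 libraries (0.0639 to 0.273), with chromosome centring (0.0886) and without the filter (0.0974), that of R377C ID without its replicate 2 (0.0651), and that of R448Q ID on the TPM scale (0.0727).

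Airn was scarce, at 0.224 to 1.25 TPM and with as few as 8 reads in a library. It fell in K365T ID, with 32.2 and 11.3 normalized counts, against 76.8 and 54.1 in WT ID (log2 fold change -1.69 ± 0.43, adjusted p = 0.00533). That call was lost without K365T ID replicate 2 (0.128) or WT ID replicate 1 (0.0636). The other 9 groups ran from -0.69 in R377H ID to 0.20 in H455R ID and were not called; of these R339Q ID, R342C ID, R377C ID, R377H ID and R448Q ID had both libraries, 34.2 to 53.6 normalized counts, under both of WT ID. In the F test across mutants Airn was the weakest member (adjusted p = 0.0302). It was not called there with edgeR (0.0521), on the TPM scale (0.072), without the filter (0.0725), or without K365T ID replicate 2 (0.194), Q418R ID replicate 1 (0.0531) or H455R ID replicate 1 (0.0749). Igf2r and Airn overlap over 28354 bases on opposite strands and averaged 8262 and 51.6 normalized counts over the 22 libraries; the strand setting is unknown, and any part of Igf2r reads in the Airn total was not tested.

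R377C and R377H replace the same arginine, and the comparison of these groups does not use WT ID. Of the 10 members 7 were called, where 19% of all genes were, 3 of them higher (7.88% of all genes) and 4 lower (11.1%) in R377C ID. Peg10 differed most, with 3716 and 1990.3 normalized counts in R377C ID, against 441 and 328 in R377H ID (log2 fold change 2.84 ± 0.29, adjusted p = 1.21e-06, 7.14-fold). Sgce had 74.8 and 47.0 normalized counts in R377C ID and 25.9 and 17.4 in R377H ID (1.44 ± 0.32, adjusted p = 0.00284), a call lost without R377C ID replicate 1 (0.0725) or R377H ID replicate 2 (0.0599). Nnat was also higher, with 228 and 232 normalized counts in R377C ID and 100.1 and 71.7 in R377H ID (1.43 ± 0.22, adjusted p = 1.23e-04). Snrpn was lower, with 1223 and 1274 in R377C ID and 2865 and 2852 in R377H ID (-1.19 ± 0.09, adjusted p = 5.04e-08). Mest (-0.83 ± 0.18, adjusted p = 0.0024), Impact (-0.71 ± 0.08, 2.16e-06) and Igf2r (-0.30 ± 0.08, 0.0144) were lower in R377C ID than in R377H ID in both libraries. The Igf2r difference was lost without R377C ID replicate 1 (0.144), without R377H ID replicate 2 (0.156) and on the TPM scale (0.0952). Plagl1 (-0.03 ± 0.08) and Airn (0.16 ± 0.43) were not called. Grb10 was not called as fitted (0.20 ± 0.16, adjusted p = 0.444) but was with chromosomes centred (0.70, adjusted p = 0.00486), the chromosome 11 median being -0.49 in this comparison.

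Untreated WT cells keep their endogenous CTCF, and their values were scaled in a separate table, so they were compared by TPM with no test. The median log2 ratio of untreated over WT ID was -0.19 over all tested genes, and the ratios given here are relative to that median. The libraries of the groups did not overlap for 9 of the 10 members, where 70.2% of all tested genes did not overlap; 3 were higher in untreated cells (19.9% of all tested genes) and 6 lower (50.3%). Peg10 was at 19.4 and 17.6 TPM in untreated cells, against 10.7 and 7.4 TPM in WT ID (relative log2 ratio 1.21). Nnat was at 11.2 and 8.32 TPM in untreated cells and 5.48 and 3.89 TPM in WT ID (1.23), and Sgce at 0.257 and 0.33 TPM against 0.22 and 0.13 TPM (0.71). Airn was lowest relative to WT ID, at 0.306 and 0.141 TPM in untreated cells and 1.29 and 0.848 TPM in WT ID (-1.67). Impact, at 134 and 118 TPM in untreated cells and 205 and 180.3 TPM in WT ID, had a relative ratio of -0.42. The ratios of Snrpn, Igf2r, Mest and Plagl1 were -0.27, -0.22, -0.13 and -0.07, and that of Grb10, whose libraries overlapped, was 0.30. WT IAA was set against the same WT ID libraries in its own comparison of normalized counts. Its log2 fold changes were -1.04 for Grb10, 0.94 for Nnat, 0.91 for Sgce, -0.89 for Peg10, 0.75 for Mest and 0.65 for Impact. They were -0.35 for Igf2r, -0.25 for Plagl1, 0.14 for Snrpn and -0.04 for Airn, the last 2 not called. As given above, the Peg10, Sgce, Nnat and Plagl1 calls were lost on leaving out 1 library.

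**Figure D4:**
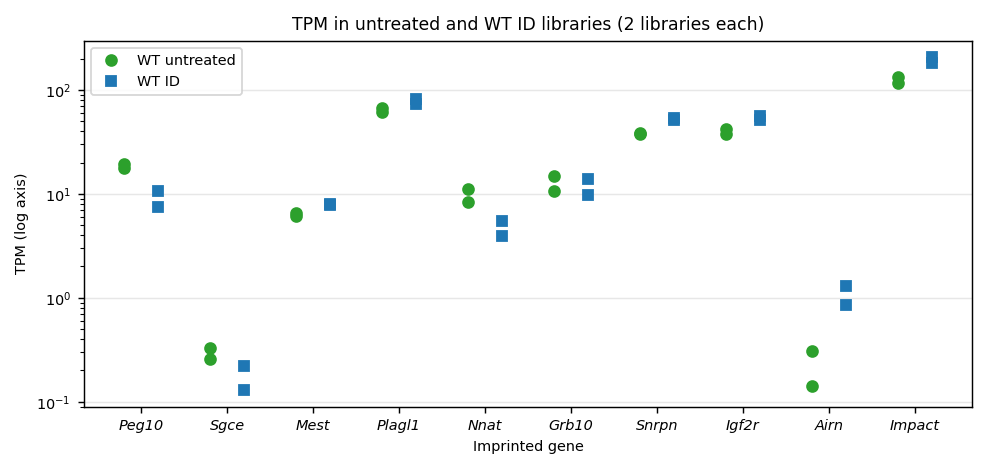
TPM (log axis) of the 10 imprinted genes in the 2 untreated WT libraries (green circles) and the 2 WT ID libraries (blue squares). Peg10 lies at 17.6 and 19.4 TPM in untreated cells, above the 7.4 and 10.7 TPM of WT ID, and Airn lies below its WT ID libraries.

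Other imprinted genes moved in both directions too. Of 23 further paternally expressed genes 17 were tested, and 3 (H455R ID) to 9 (R377H ID, Q418R ID and R448Q ID) were called in a mutant. The 3 in H455R ID are 17.6% of those tested, where 23.1% of all genes were called, and 9 is 52.9%, where 25.1% of all genes were called in R377H ID, 25% in Q418R ID and 45.8% in R448Q ID. Of 36 further maternally expressed genes 28 were tested, and 4 (R377C ID and Q418R ID) to 19 (R448Q ID) were called. The count of 4 is 14.3%, where 8.09% of all genes were called in R377C ID and 25% in Q418R ID, and the 19 in R448Q ID are 67.9%, against 45.8% of all genes. In R377H ID 17 were called (60.7%, against 25.1% of all genes), 4 higher and 13 lower. The median log2 fold change of those tested was -0.28, against -0.01 over all genes. In R448Q ID 6 were higher and 13 lower (-0.23 against -0.01). Each gene was counted singly, also where several share a locus, so these are not counts of separate loci. In WT IAA 3 of the paternally (17.6%) and 5 of the maternally expressed genes (17.9%) were called, where 20.7% of all genes were. Of 15 genes that write, keep or remove DNA methylation or bind imprinted regions, all tested, 1 was called in S354F ID and in R377C ID (6.67%, against 9.8% and 8.09% of all genes). In R448Q ID 9 were (60%, against 45.8%), 6 higher and 3 lower, and in WT IAA 3 were (20%, against 20.7%). In R342C ID 5 were, all lower (33.3%, against 23.3%), and in R377H ID and Q418R ID 6 each (40%, against 25.1% and 25%). The shares in R339Q ID, K365T ID and H455R ID were 20%, 33.3% and 26.7%, against 21.5%, 32% and 23.1%. Tet3, which acts in the removal of methylation and was chosen after its values were seen, was called in 7 of the 10 comparisons, 6 of them lower. Dppa3, another of the 15 and also chosen after its values were seen, was called in 6, all higher. Its median absolute log2 fold change was 1.25, against 0.41 for Tet3. Genes named by a rule, called in at least 6 of the 10 comparisons, were Peg3, Usp29, Dio3, Osbpl5, Qpct and Slc38a4. Peg3, a zinc finger gene, fell in 7 mutants, by up to 3.00 ± 0.19 in R339Q ID (adjusted p = 4.15e-09), and was higher in H455R ID (0.92 ± 0.19, 0.0015) and R377H ID (0.63 ± 0.19, 0.0195). Its neighbour Usp29 fell in 6 mutants, most in H455R ID (-2.16 ± 0.21, adjusted p = 6.13e-07). Dio3, which inactivates thyroid hormone, was higher in 5 mutants and WT IAA and lower in R377H ID (-1.09 ± 0.23, adjusted p = 0.00156). Slc38a4, an amino acid transporter gene, fell in 7 mutants, most in R448Q ID (-1.79 ± 0.11, adjusted p = 2.20e-10). Osbpl5, a lipid transfer gene, was higher in 5 mutants and WT IAA and lower in R448Q ID (-1.51 ± 0.20, adjusted p = 4.14e-06). Qpct, which encodes glutaminyl cyclase, was higher in 6 mutants, most in R377H ID (1.28 ± 0.13, adjusted p = 4.92e-07), and lower in H455R ID (-0.70 ± 0.13, 6.17e-04) and WT IAA (-0.57 ± 0.13, 0.00437).

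Genes starting within 250 kb of a member were counted wherever that member was called. For Plagl1 and its 5 tested neighbours, 30 pairs of a neighbour and a comparison in which Plagl1 was called held 4 calls in the same direction and 5 in the opposite one. Over all genes, the mean share called in the direction of the member in its comparisons lay between 9.17% (Grb10) and 14.2% (Plagl1 and Airn), and the share in the opposite direction between 10.4% (Snrpn) and 17.7% (Airn); for Plagl1 these were 14.2% and 13.9%. For Mest there were 8 in the same direction and 5 in the opposite one among 54 pairs, for Igf2r 9 and 5 among 64, for Grb10 3 and 4 among 15, and for Impact 0 and 0 among 18. For Peg10 they were 12 and 2 among 45, for Sgce 10 and 2 among 35, for Nnat 8 and 1 among 40, and for Snrpn 2 and 0 among 9. For Airn they were 0 and 2 among 6. Peg10 and Sgce were the one pair called in the same direction in at least 4 comparisons. Each was counted as a neighbour of the other, so this pair gave 6 of the 12 same-direction calls for Peg10 and 6 of the 10 for Sgce. The mean share of all genes called in the member's direction was 12.5% for Peg10 and 12.8% for Sgce.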

How the data were processed

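Per the labels' protocols, total RNA was depleted of ribosomal RNA, made into stranded libraries and read in pairs. Per the submitters' processing notes, the tools were STAR, Trim Galore and DESeq2, with mm10; their versions, the counting tool, its annotation and whether it used strand were not given in the sources used here. Gene-level signal was deposited by the authors as normalized counts (counts divided by 1 size factor per library) and TPM, each as a table of 22 libraries and a separately scaled table of the 2 untreated libraries. In every library 100% of values were whole multiples of 1 step within 0.001, so whole reads were recovered (27.8 to 77.1 M per library); counts rather than signal were then tested as alternatives. Of columns belonging to other series there were 0. Coordinates of 53180 of the 55291 symbols come from an mm10 annotation, and promoter sequences from RefSeq.

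A mean for each group was fitted by limma 3.58.1 in R 4.3.3 (eBayes with trend) to log2(normalized count + 1) of genes with a mean of at least 10, with 11 residual and 8.13 prior degrees of freedom. Tests were 2-sided and Benjamini-Hochberg adjusted within each comparison. Errors after log2 fold changes are SE. Untreated cells were compared by log2 ratios of mean TPM + 0.1. Replicate libraries differed by more than sampling noise. The chi-square per gene between the 2 libraries of a group was 6.355 (R339Q ID) to 41.59 (R342C ID), with 31.16 in K365T ID. The SE of a gene was nevertheless the same in every comparison with WT ID, so it does not reflect such differences between groups. Alternatives were edgeR 4.0.16, DESeq2 1.42.0, log2(TPM + 0.1), a pseudocount of 5, no filter, only the compared groups, a replicate block, chromosome centring and leaving out each library. With 2 libraries a group, precision rests on the spread pooled over groups. The members and lists were chosen with earlier results of these data known. All members are named; other imprinted genes were named if called in at least 6 of 10 comparisons with a mean of at least 50 normalized counts.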

Additional observations from a re-analysis of the deposited data

Results flagged for a closer look

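The groups R377C ID and R377H ID differ in the residue put in place of the same arginine. By the test of the difference itself 7 of the 10 imprinted genes were called, where 19% of all genes were. The log2 difference of R377C ID over R377H ID was 2.84 for Peg10, 1.44 for Sgce, 1.43 for Nnat, -1.19 for Snrpn, -0.83 for Mest, -0.71 for Impact and -0.30 for Igf2r. The calls of Sgce and Igf2r were lost on leaving out 1 library, and that of Igf2r also on the TPM scale. Each substitution is 1 line, so substitution and line cannot be told apart.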

How the results depend on the processing

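Of the 66 called pairs of a member and a comparison, R377C ID over R377H ID included, none changed sign in any alternative. Leaving out each library in turn kept 42 of them called throughout and ended 24 at least once, and the other alternatives kept 499 of 528 calls. On recovered reads edgeR called 1618 (R377C ID) to 8738 genes (R448Q ID) against WT ID, and limma 1514 to 8578. Leaving out 1 library lowered the calls over all genes to 582 of 1514 in R377C ID (its replicate 2) and 2003 of 4365 in R342C ID (WT ID replicate 2), and fitting only the compared groups gave 2639 in R342C ID, against 4365. On leaving out 1 library, the number of members called moved past 1.5 times in WT IAA, R342C ID, S354F ID, R377H ID and H455R ID. With all libraries kept it did so in WT IAA and in H455R ID alone. In WT IAA it was 5 on the TPM scale, where 3294 of 18713 genes were called. It was also 5 there without the filter on low counts, where 3111 of 39578 genes were called. In H455R ID it was 3 without the filter, where 3623 of 39578 were. Leaving out 1 library gave 4 to 6 members in WT IAA, 3 to 4 in R339Q ID, 5 to 6 in R342C ID, 1 to 2 in S354F ID, 7 in K365T ID, 4 to 6 in R377C ID, 3 to 5 in R377H ID, 4 to 5 in Q418R ID, 7 to 8 in R448Q ID, 3 to 5 in H455R ID, 5 to 7 in R377C ID over R377H ID, 9 to 10 across mutants and 9 to 10 in untreated cells; the spread is then estimated with 1 library alone in its group. Calls over all genes also fell on leaving out 1 library, in every comparison with WT ID and in R377C ID over R377H ID. The ranges of members called therefore do not describe the members alone. The count for untreated cells is of libraries not overlapping, which is easier to meet with fewer libraries. No share of all genes is given for it at that setting. The causes of the changes in members called were not tested. Replicate numbers showed no pairing common to all groups (correlations of deviations -0.25 to 0.38, median 0.023, over 55 pairs of groups, 10 of them over 0.1). Pairing within some of the groups was not tested. A fit with the replicate number as a block gave 8 members in WT IAA, 7 in R342C ID and 2 in S354F ID. Over all 18713 genes it called 3861, 4371 and 1850 in these groups. It lost Nnat in R342C ID (adjusted p = 0.0524) and Igf2r in S354F ID (0.0516), and changed no other call of a member. Log2 fold changes that were not called and changed sign were Airn in WT IAA (0.014 with edgeR, 0.0064 with DESeq2, 0.0018 centred), Snrpn centred by chromosome in K365T ID (0.080) and R448Q ID (0.083), and Plagl1 on the TPM scale in R377H ID (-0.058) and R377C ID over R377H ID (0.073). On leaving out 1 library such values spanned 0, with log2 fold changes as follows. Airn -0.13 to 0.52 in H455R ID, -0.28 to 0.21 in Q418R ID, -0.044 to 0.36 in R377C ID over R377H ID, -0.93 to 0.41 in S354F ID, -0.43 to 0.36 in WT IAA. Grb10 -0.31 to 0.095 in K365T ID, -0.40 to 0.0092 in R342C ID, -0.028 to 0.42 in R377C ID over R377H ID. Igf2r -0.078 to 0.22 in H455R ID. Nnat -0.49 to 0.017 in H455R ID, -0.12 to 0.27 in S354F ID. Peg10 -0.047 to 0.42 in S354F ID. Plagl1 -0.098 to 0.035 in R377C ID over R377H ID, -0.066 to 0.068 in R377C ID. Sgce -0.48 to 0.15 in R377H ID, -0.025 to 0.60 in S354F ID. Snrpn -0.065 to 0.0097 in K365T ID. Depth limits Airn, Sgce and Nnat, which had as few as 8, 16 and 22 reads in a library.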

Other observations

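Among 12454 candidate genes, the one whose log2 group means over the 11 groups of the main table were most like those of each member listed was, by Pearson's r, Adam15 (0.92 with Sgce), Spic (0.97 with Mest), Txnrd3 (0.87 with Plagl1), Slc15a4 (0.93 with Nnat), Pnldc1 (0.95 with Grb10), Gnpnat1 (0.91 with Snrpn), Iqgap2 (0.95 with Igf2r), Fam160a2 (0.92 with Airn), Gpbp1l1 (0.96 with Impact). The second were Slc39a14 (0.85 with Sgce), Pls1 (0.95 with Mest), Neurl2 (0.86 with Plagl1), Dnmt3b (0.92 with Nnat), Rnf139 (0.93 with Grb10), Rps6kl1 (0.90 with Snrpn), Hs1bp3 (0.92 with Igf2r), Cdk7 (0.90 with Airn), Mpc1-ps (0.95 with Impact). All share the same libraries, and these values describe likeness only.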
